A study of Mus musculus with 12 samples.

Results

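The genes described here, in mouse fibroblasts under conversion to motor neurons, are Il33, Il1rn, Il1rl1, Il1r1, Il1rap, Csf1 and Tnfrsf11b. They are 7 of the 23077 genes in the table, picked by symbol as members of the IL1 family with 2 further secreted regulators, and all 7 passed the filter on low values. The picks were made with earlier results of these data known, and which values led to them is not recorded. Every change below is therefore a description of its size against the spread between libraries, and nothing is read from how many members passed a threshold. All cells were primary mouse embryonic fibroblasts of genotype Hb9::GFP, infected with a retrovirus called NIL that carries Ngn2, Isl1 and Lhx3, and moved on day 3 to N3 medium with BDNF, GDNF, CNTF and FGF. RISDD cells also received HRAS(G12V), a constitutively active HRAS, placed before an internal ribosome entry site (IRES) with SNAP-tagged p53DD, a dominant-negative p53 fragment, after it (3 libraries). SDDIR cells received the same 2 proteins in the other order, with HRAS(G12V) after the IRES (2 libraries). SDD cells received SNAP-p53DD without HRAS (3 libraries), and NIL cells received no second construct (3 libraries). RISDD, SDDIR and SDD cells were further treated from day 3 with RepSox, which blocks the TGF-beta type I receptor, and were sorted for the SNAP tag. NIL cells had no RepSox and were sorted as live single cells, so in SDD against NIL the effects of p53DD, RepSox, the added virus and the sort cannot be told apart. RNA of sorted cells was sequenced on day 4. All libraries come from a mixed primary culture, so fewer cells of a type and less RNA per cell cannot be told apart.

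IL1 family cytokines act through paired receptors. IL1R1 binds IL1, ST2 (encoded by Il1rl1) binds IL33, and both pair with the shared accessory protein IL1RAP to start signalling through MYD88, IRAK kinases and NF-kappaB. IL1RN is a secreted antagonist that occupies IL1R1 without recruiting IL1RAP, and IL33 is stored in the nucleus of stromal and epithelial cells and released on damage. Fibroblasts are a main source of CSF1, the growth factor that keeps macrophages alive, and of osteoprotegerin (encoded by Tnfrsf11b), a decoy receptor that binds RANKL and TRAIL. Il1rl1, Il1rap and Il1rn each give rise to several transcripts, among them soluble forms of ST2 and IL1RAP and intracellular forms of IL1RN, and the values here are summed over the transcripts of a gene.

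Values are gene counts scaled to each library by the authors and are called values here. They are not divided by gene length, so levels are compared between libraries and not between genes. The libraries held 14872639 to 29815073 reads, and the reads behind a member ran from 12 (Il1rn) to 14440 (Il33) in a library. Trp53, whose row also counts p53DD, was at 43128 to 46185 in RISDD, 29277 and 37068 in SDDIR and 32346 to 40363 in SDD, against 2873 to 3674 in NIL, so p53DD was seen where the labels place it. The Hras row, at 1087 to 1234 in RISDD, 911 and 933 in SDDIR, 830 to 981 in SDD and 1129 to 2342 in NIL, did not check the HRAS labels. All 12 fibroblast markers had reads in every group, and their summed value was 188287 to 204248 in RISDD, 234934 and 268572 in SDDIR, 632483 to 749907 in SDD and 819941 to 1324961 in NIL. NIL C stood apart from NIL A and NIL B, with 0.537% of its signal from mitochondrially encoded genes against 3.62% and 4.00%. The heading of SDDIR B stood on 2 columns with identical values and was counted once.

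The calls for the 7 genes are given beside those for all tested genes. A gene changed when its adjusted p was under 0.05 in limma, with Benjamini-Hochberg adjustment over 14207 genes, and folds are on the log2(value + 1) scale. In RISDD against SDD, Il33, Il1rn and Il1rap rose, Il1r1, Csf1 and Tnfrsf11b fell, and Il1rl1 did not pass. That is 6 of 7, where 42.6% of all tested genes changed, and the libraries of 6 members did not overlap between the groups, as for 70.7% of all tested genes. In SDDIR against SDD, 4 of 7 changed, where 22.5% of all tested genes did: Il33 rose and Il1r1, Csf1 and Tnfrsf11b fell. Groups did not overlap for those 4 members and for 64.9% of all tested genes. In RISDD against SDDIR, 3 of 7 changed, where 9.69% of all tested genes did: Il1rn rose and Csf1 and Tnfrsf11b fell. Groups did not overlap for 6 members and for 60.1% of all tested genes. That count of 3 was 1 without SDDIR A. In SDD against NIL, 4 of 7 changed, where 17.6% of all tested genes did: Il1r1 rose and Il33, Il1rl1 and Csf1 fell. Groups did not overlap for 4 members and for 36.3% of all tested genes. That count was 2 when SDD A or SDD C was left out, and 0 when only these 2 groups were fitted. The comparisons share libraries (SDD stands in 3 of them), so they are not independent of each other. The median log2 change of the 7 members was -0.71 in RISDD against SDD, -1.60 in SDDIR against SDD, 0.60 in RISDD against SDDIR and 0.02 in SDD against NIL, against 0.02, 0.01, 0.01 and 0.05 for all tested genes.

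**Figure D1:**
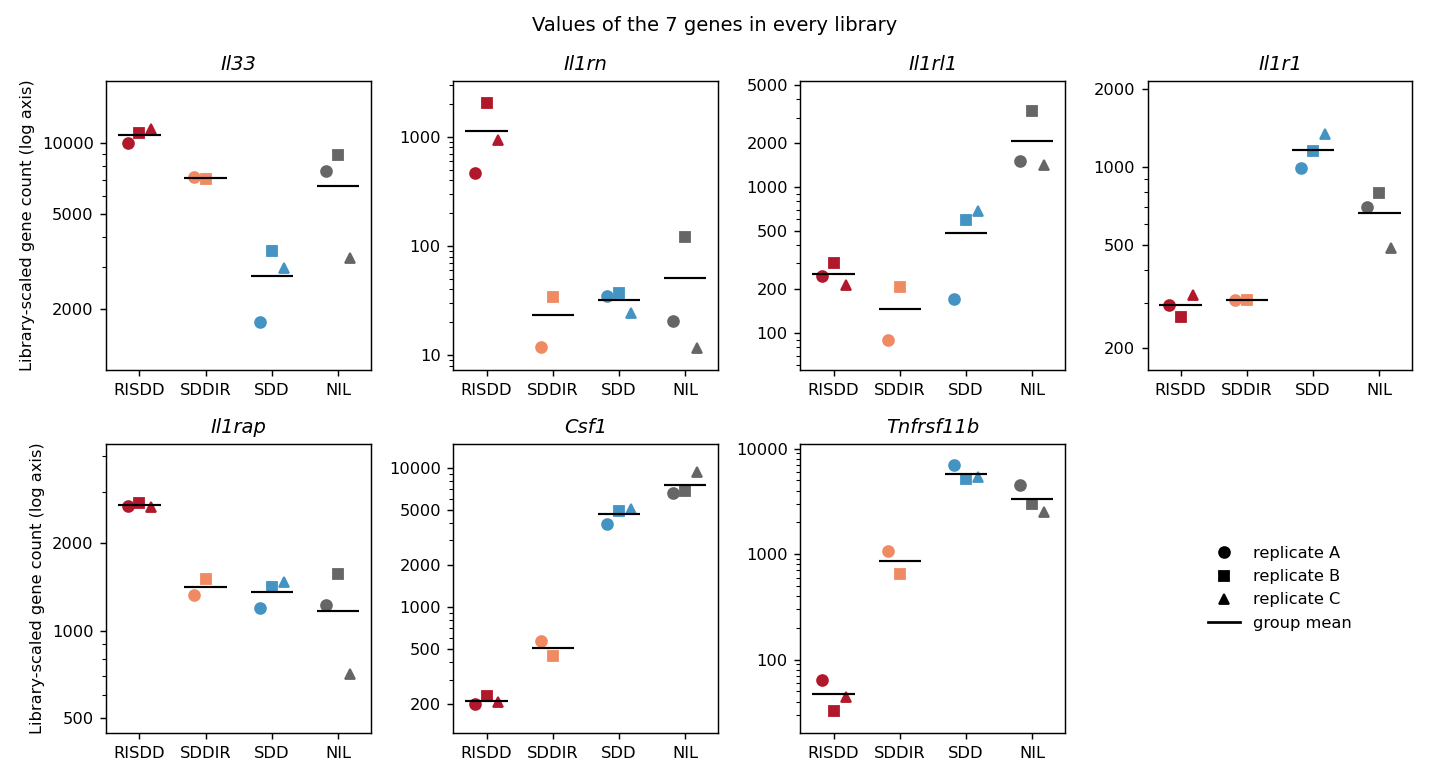
Library-scaled gene count (log axis, a separate range for each gene) of the 7 genes in 11 libraries, with RISDD, SDDIR, SDD and NIL from left to right, 1 point per library and a bar at the group mean. Tnfrsf11b and Csf1 were lowest in RISDD (means 47.0 and 212) and Il1rn was highest there (mean 1141).

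**Figure D2:**
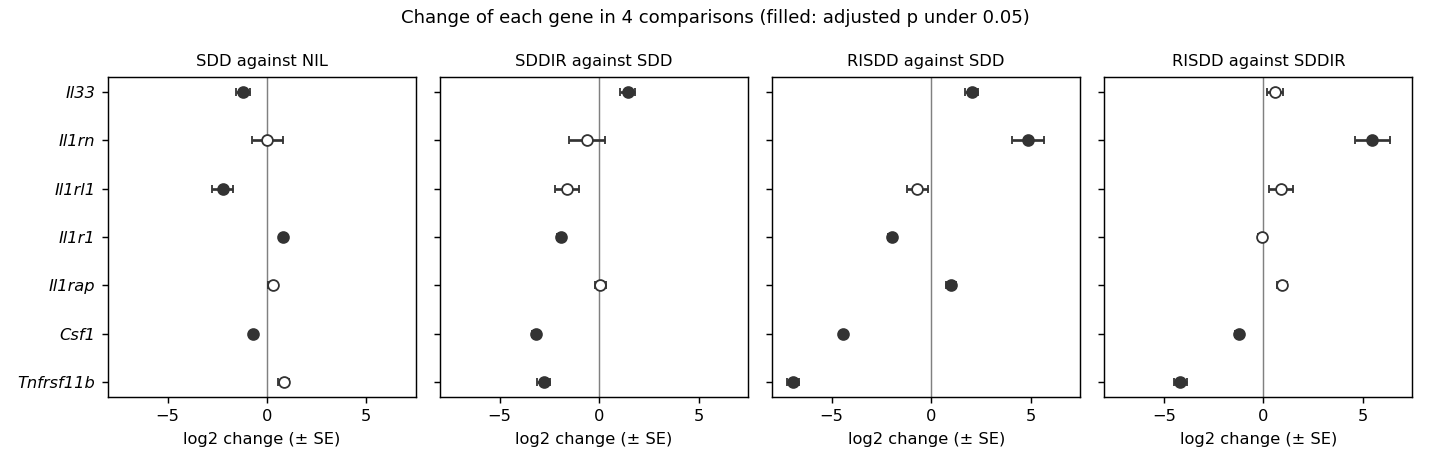
Log2 change of each gene with its standard error in 4 comparisons, filled where the adjusted p was under 0.05. Bars smaller than a point are hidden by it, and the widest standard errors belong to Il1rn and Il1rl1.

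Among the ligands, Il33 was highest with HRAS before the IRES. Its values were 9987, 10970 and 11413 in RISDD, 7170 and 7072 in SDDIR, 1761, 3498 and 2977 in SDD, and 7592, 8941 and 3274 in NIL. The RISDD libraries lay above all others, and the SDDIR libraries lay above every SDD library. NIL A and NIL B were above all SDD libraries too, while NIL C lay between SDD B and SDD C, so NIL and SDD overlapped. Il33 averaged 10790 ± 730 in RISDD and 2745 ± 891 in SDD (SD, n = 3 each), 4.08-fold higher (log2 change 2.03 ± 0.35 SE, adjusted p = 8.57e-04). It averaged 7121 ± 69.5 in SDDIR (SD, n = 2), 2.70-fold higher than in SDD (log2 change 1.43 ± 0.39 SE, adjusted p = 0.0232). The SDDIR call was lost without SDD A, SDDIR A or SDDIR B (adjusted p = 0.0813, 0.125 and 0.118, with a range of 0.00139 to 0.125 across the 22 alternatives). RISDD and SDDIR did not overlap, yet the log2 change of 0.60 ± 0.39 (SE) did not pass (adjusted p = 0.410), though it did when only these 2 groups were fitted (adjusted p = 2.74e-04, against 0.717 at the highest across the 22 alternatives). In SDD against NIL, Il33 was 2.30-fold lower (log2 change -1.20 ± 0.35 SE, adjusted p = 0.0384). That call was lost without any library of RISDD or SDDIR and without NIL A, NIL B, SDD A or SDD C, which gave adjusted p = 0.0606 to 0.142. Without NIL C the log2 change was -1.64 (adjusted p = 0.00159), and across the 22 alternatives the adjusted p was 0.00159 to 0.151.

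Il1rn, the receptor antagonist, was highest in RISDD, at a different level in each library. It was at 466, 2027 and 929 in RISDD, 11.9 and 34.4 in SDDIR, 35.0, 36.7 and 24.6 in SDD, and 20.3, 122 and 11.6 in NIL. Every RISDD library lay above every other library, with RISDD B highest and RISDD A lowest of them, and the other groups overlapped each other. NIL B stood above NIL A and NIL C. Il1rn averaged 1141 ± 801 in RISDD and 32.1 ± 6.57 in SDD (SD, n = 3 each), 29.4-fold higher (log2 change 4.88 ± 0.80 SE, adjusted p = 6.26e-04). Against SDDIR, at 23.1 ± 15.9 (SD, n = 2), it was 45.0-fold higher (log2 change 5.49 ± 0.89 SE, adjusted p = 0.00471). That change was 4.76 without SDDIR A, where the call was lost (adjusted p = 0.0737), and 6.22 without SDDIR B (adjusted p = 0.0253), and across the 22 alternatives the adjusted p was 2.43e-06 to 0.0737. No change passed in SDDIR against SDD (log2 change -0.61 ± 0.89 SE, adjusted p = 0.691) or in SDD against NIL (0.02 ± 0.80 SE, adjusted p = 0.987).

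Markers of 2 other cell types that can make Il1rn were read beside it. The 16 macrophage markers summed to 1029, 2020 and 1331 in RISDD A, B and C, 440 and 1157 in SDDIR A and B, 859, 2139 and 1650 in SDD A, B and C, and 4426, 17030 and 7582 in NIL A, B and C. The macrophage sum had the same order as Il1rn in RISDD (A lowest, B highest) and in SDDIR (A below B). In SDD and NIL, B was highest for both, but the lowest was C for Il1rn and A for the sum. The RISDD sums lay within the range of the SDD sums and below every NIL sum, but different markers made them up. Cd68 was the largest part of each RISDD sum and Lyz2 of each SDD sum. Adgre1 (12.4 to 22.2 in RISDD and 83.4 to 207 in SDD), C1qb (6.18 to 25.3 and 44.0 to 158) and C1qc (4.95 to 17.2 and 65.4 to 117) were lower in every RISDD library than in any SDD library. Aif1, a marker of macrophages and microglia, was at 0 in all RISDD libraries, while Cd68 (506 to 779 in RISDD and 53.0 to 124 in SDD) and Laptm5 (155 to 466 in RISDD and 37.2 to 110 in SDD) were higher in every RISDD library than in any SDD library. In the list as a whole, 1 marker rose and 4 fell of 15 tested in RISDD against SDD, where 20.0% of all tested genes rose and 22.6% fell. The 9 epithelial markers used summed to 12821, 12231 and 8775 in RISDD A, B and C, 2448 and 3784 in SDDIR A and B, 65.7 to 77.8 in SDD and 917 to 1024 in NIL. Of them 8 of 8 tested rose in RISDD against SDD, where 20.0% of all tested genes did. Krt14 was at 0 in RISDD, SDDIR and SDD. Cdh1, which encodes E-cadherin, was at 71.7, 314 and 198 in RISDD A, B and C, the same order as Il1rn, and at 0 to 4.74 in all other libraries. Dsp had that order too (110, 206 and 175), but the rest of the list did not. Krt18, Krt8, Epcam, Cldn4 and the list sum were highest in RISDD A, where Il1rn was lowest of the RISDD libraries. Krt19 and Grhl2 were highest in RISDD C. The part of macrophages or of cells with epithelial markers in the Il1rn result was not tested.

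**Figure D3:**
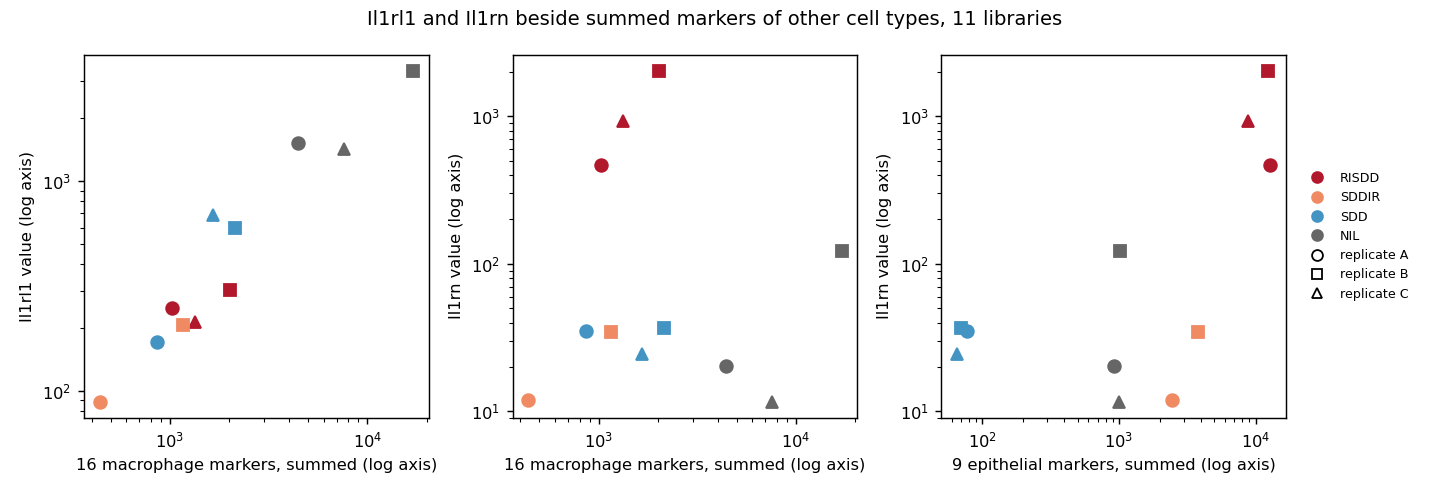
Il1rl1 against 16 summed macrophage markers, Il1rn against the same sum, and Il1rn against 9 summed epithelial markers, with 1 point per library and all axes on a log scale. NIL B had the highest macrophage sum (17030) and the highest Il1rl1 (3335), and the RISDD libraries had the highest Il1rn at macrophage sums of 1029 to 2020.

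Sequence before a start of Il1rn is shown because Il1rn was the member raised most in RISDD. Windows of 250 bases before a start were taken from RefSeq on build GRCm38.p6, for 6 of the 7 members and 11 starts (Tnfrsf11b had no window), whereas the reads were quantified on GRCm39. Each was searched for the AP-1 motif TGANTCA and for the kappaB motif (GGG, any 3 bases, then TTCC), each on both strands. The AP-1 motif was found in 1 of the 11 windows and the kappaB motif in 3, against 6.75% and 4.65% of 32817 windows of that length at all RefSeq starts. Il1rn has 3 annotated starts, and the kappaB matches lay at its last start (51 bases before it), at a start of Il1r1 and at Csf1. The AP-1 match lay in the window of the first Il1rn start, beginning 141 bases before the start, and is in capitals below. Of the 3 Il1rn windows this one is shown for its match, and the last, with the kappaB match, is not shown. Which start was used was not measured, and a match is a run of letters, not a site shown to be bound.
Il1rn, chr2:24336610-24336859, + strand: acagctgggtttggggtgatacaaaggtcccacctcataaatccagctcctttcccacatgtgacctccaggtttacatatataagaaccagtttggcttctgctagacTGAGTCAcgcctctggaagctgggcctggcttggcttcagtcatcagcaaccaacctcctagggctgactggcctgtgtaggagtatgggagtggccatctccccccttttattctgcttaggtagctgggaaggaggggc

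Among the receptors, Il1rl1, which encodes the IL33 receptor ST2, was highest in NIL. Its values were 247, 303 and 212 in RISDD, 88.9 and 205 in SDDIR, 170, 595 and 685 in SDD, and 1508, 3335 and 1417 in NIL. Every NIL library lay above every other library, with NIL B highest, and SDD A lay below SDD B and SDD C and within the range of the HRAS groups. Il1rl1 averaged 483 ± 275 in SDD, against 2087 ± 1082 in NIL (SD, n = 3 each), which is 4.67-fold lower (log2 change -2.22 ± 0.53 SE, adjusted p = 0.0183). The log2 change was -1.59 without SDD A (adjusted p = 0.0486), the call was lost when only these 2 groups were fitted (adjusted p = 0.0734), and across the 22 alternatives the adjusted p was 2.87e-04 to 0.0734. SDDIR averaged 147 ± 82.1 (SD, n = 2), and its log2 change of -1.60 ± 0.59 (SE) against SDD did not pass (adjusted p = 0.0819), though it did without SDD A (-2.23, adjusted p = 0.0121) and with DESeq2 (adjusted p = 0.0110). RISDD averaged 254 ± 46.2 (SD, n = 3), and its change against SDD was -0.71 ± 0.53 (SE, adjusted p = 0.317), or -1.34 without SDD A (adjusted p = 0.0380). RISDD and SDDIR did not overlap, but the log2 change of 0.89 ± 0.59 (SE) did not pass (adjusted p = 0.423). In RISDD, SDDIR and NIL the library with the highest summed macrophage markers, labelled B each time, also had the highest Il1rl1. SDDIR had 2 libraries, and the letter of SDDIR B is not settled. The lowest library differed in RISDD and NIL, where the sum was lowest in A (1029 and 4426) and Il1rl1 in C. In SDD the highest sum was in SDD B (2139) and the highest Il1rl1 in SDD C (685). The lowest of both was in SDD A. The macrophage list had 5 of 15 tested markers lower in SDD than in NIL and 0 higher, where 8.26% of all tested genes were lower and 9.32% higher. The part of such cells in the Il1rl1 values was not tested. Mast cells carry ST2 as well. Their 9 markers summed to 143 to 338 in SDD and 77.6 to 206 in NIL, of which Gata2, a transcription factor gene also used by other cells, was 123 to 325 in SDD and 73.8 to 178 in NIL. Cma1, a mast cell protease gene, was at 1.84 to 2.90 in SDD and 3.88 to 14.5 in NIL, and Cpa3, Fcer1a and Tpsb2 were at 0 in every NIL library. Only 2 of the 9 mast cell markers were tested, and their part in the Il1rl1 values was not tested.

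Il1r1, the signalling receptor for IL1, had its highest values in SDD and similar low values in the HRAS groups. It was at 294, 264 and 322 in RISDD, 307 and 307 in SDDIR, 987, 1153 and 1337 in SDD, and 702, 795 and 489 in NIL. The SDD libraries lay above all NIL libraries and these above all libraries with HRAS, whereas RISDD and SDDIR overlapped. Il1r1 was 3.92-fold lower in RISDD (294 ± 29.3, SD, n = 3) than in SDD (1159 ± 175, SD, n = 3), with adjusted p = 1.80e-05. SDDIR was 3.73-fold below SDD (adjusted p = 1.84e-04). Between RISDD and SDDIR the log2 change was -0.07 ± 0.21 (SE, adjusted p = 0.902). In SDD against NIL (662 ± 157, SD, n = 3) Il1r1 was 1.77-fold higher (log2 change 0.82 ± 0.19 SE, adjusted p = 0.0153). That call was lost without SDD C (adjusted p = 0.0707) and when only these 2 groups were fitted (adjusted p = 0.0878), with a range of 9.30e-04 to 0.0878 across the 22 alternatives.

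Il1rap, the accessory protein that IL1R1 and ST2 share, moved the other way from Il1r1 in RISDD. Its values were 2676, 2749 and 2665 in RISDD, 1321 and 1502 in SDDIR, 1192, 1410 and 1475 in SDD, and 1226, 1563 and 710 in NIL. The RISDD libraries lay close together and above all others, and the other 3 groups overlapped. Il1rap averaged 2697 ± 45.3 in RISDD and 1359 ± 148 in SDD (SD, n = 3 each), 1.99-fold higher (log2 change 0.99 ± 0.24 SE, adjusted p = 0.00642). Against SDDIR, at 1412 ± 128 (SD, n = 2), the log2 change of 0.94 ± 0.27 (SE) did not pass (adjusted p = 0.0521). It passed without NIL B or NIL C (adjusted p = 0.0209 and 4.64e-04), with DESeq2 (adjusted p = 0.00909) and when only these 2 groups were fitted (adjusted p = 2.99e-05), and was at 0.299 at the highest across the 22 alternatives. The log2 changes in SDDIR against SDD (0.06 ± 0.27 SE, adjusted p = 0.914) and in SDD against NIL (0.29 ± 0.24 SE, adjusted p = 0.413) did not pass.

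Il1r1 and Il1rl1 lie beside each other's relatives on chromosome 1, in the order Il1r2, Il1r1, Il1rl2, Il1rl1, Il18r1 and Il18rap in RefSeq. Their neighbours there were read beside them. Il1r2, a decoy receptor for IL1, averaged 4.50 in RISDD and 32.8 in SDD and fell (6.01-fold lower, adjusted p = 9.87e-04), as Il1r1 did. Il1rl2, the IL36 receptor, was at 137 in RISDD and 168 in SDD (log2 change -0.30, adjusted p = 0.360). Il18rap, the IL18 accessory receptor, averaged 26.8 in SDD and 119 in NIL and fell (4.21-fold lower, adjusted p = 0.0389), as Il1rl1 did, and that call was lost without NIL A, NIL B, SDD A, SDD C, RISDD B or either SDDIR library (adjusted p = 0.0533 to 0.135, with a range of 0.00336 to 0.135 across the 22 alternatives). In RISDD and SDDIR against SDD, Il18rap had log2 changes of 0.16 and 0.39 where Il1rl1 had -0.71 and -1.60, and none of these passed. Il18r1 was at 0 in all 11 libraries.

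Csf1 was lowest in RISDD, followed by SDDIR, SDD and NIL. Its values were 199, 231 and 208 in RISDD, 567 and 446 in SDDIR, 3946, 4869 and 5032 in SDD, and 6548, 6813 and 9282 in NIL. No 2 groups overlapped. Csf1 averaged 212 ± 16.2 in RISDD and 4616 ± 585 in SDD (SD, n = 3 each), 21.5-fold lower (log2 change -4.43 ± 0.17 SE, adjusted p = 6.86e-08). It averaged 507 ± 86.0 in SDDIR (SD, n = 2), 9.11-fold lower than in SDD (adjusted p = 1.04e-05). Between RISDD and SDDIR it was 2.36-fold lower in RISDD (log2 change -1.24 ± 0.19 SE, adjusted p = 0.00337). It missed the threshold when SDDIR A was left out (adjusted p = 0.0560, with a range of 2.97e-07 to 0.0560 across the 22 alternatives). SDD was 1.62-fold lower than NIL, at 7548 ± 1508 (SD, n = 3; log2 change -0.70 ± 0.17 SE, adjusted p = 0.0186), and that call was lost without SDD A (adjusted p = 0.0735) and when only these 2 groups were fitted (adjusted p = 0.0855), with a range of 9.98e-04 to 0.0855 across the 22 alternatives. The summed fibroblast markers given above were also lower in RISDD and SDDIR than in SDD. Of the 12 fibroblast markers 1 rose and 11 fell in RISDD against SDD, where 20.0% of all tested genes rose and 22.6% fell. In SDDIR against SDD 1 of these markers rose and 10 fell, where 8.66% and 13.9% of all tested genes did. Their part in the falls of Csf1, Il1r1 and Tnfrsf11b was not tested. The window before the annotated start of Csf1 is shown because its kappaB match (in capitals, beginning 154 bases before the start) is 1 of the 3 found, and Csf1 passed as lower in all 4 comparisons.
Csf1, chr3:107760470-107760719, - strand: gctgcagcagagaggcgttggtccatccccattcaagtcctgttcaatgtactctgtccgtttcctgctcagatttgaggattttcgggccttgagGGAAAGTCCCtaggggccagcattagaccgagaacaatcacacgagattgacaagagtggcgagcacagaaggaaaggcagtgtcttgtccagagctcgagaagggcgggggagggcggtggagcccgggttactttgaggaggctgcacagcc

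Tnfrsf11b had the widest range of the 7 genes. Osteoprotegerin transcripts were at 64.3, 32.4 and 44.3 in RISDD, 1076 and 650 in SDDIR, 6955, 5109 and 5365 in SDD, and 4493, 2998 and 2495 in NIL. The groups did not overlap, with RISDD lowest, then SDDIR, NIL and SDD. Tnfrsf11b averaged 47.0 ± 16.2 in RISDD and 5809 ± 1000 in SDD (SD, n = 3 each), 125-fold lower (log2 change -6.96 ± 0.30 SE, adjusted p = 1.23e-07). It averaged 863 ± 302 in SDDIR (SD, n = 2), 6.88-fold lower than in SDD (log2 change -2.78 ± 0.33 SE, adjusted p = 2.69e-04). RISDD was 18.1-fold lower than SDDIR (log2 change -4.18 ± 0.33 SE, adjusted p = 2.08e-04). These 3 falls passed under all 22 alternatives. In SDD against NIL, at 3329 ± 1039 (SD, n = 3), the log2 change of 0.83 ± 0.30 (SE) did not pass although the libraries did not overlap (adjusted p = 0.0771). It passed without NIL A (adjusted p = 0.0385) and with DESeq2 (adjusted p = 0.0300). Osteoblasts are another source of osteoprotegerin. Their 8 markers summed to 1903 to 2126 in RISDD, 1423 and 1570 in SDDIR, 668 to 944 in SDD and 774 to 1254 in NIL. Most of that sum was Runx2, an osteoblast transcription factor gene (1184 to 1408 in RISDD, 1132 and 1338 in SDDIR, 476 to 663 in SDD and 669 to 778 in NIL). Dmp1, also on the list, was at 288 to 473 in RISDD and 9.22 to 17.4 in SDD. Bglap2 was at 5.06 to 32.4 in RISDD and at 0 in SDD. Alpl, an osteoblast phosphatase gene, was at 3.95 to 6.18 in RISDD and 6.77 to 12.9 in SDD, and Ibsp was at 0 in every library. Of 4 tested osteoblast markers 2 rose and 0 fell in RISDD against SDD, where 20.0% of all tested genes rose and 22.6% fell. The part of osteoblasts in the Tnfrsf11b values was not tested.

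The genes whose log2(value + 1) followed each member most closely over the 11 libraries were read from 10657 genes, as a description over points that share their groups. For Il33 they were Eif2b3, Cers2 and Slc25a24 (Pearson r = 0.986, 0.964 and 0.958). For Il1rn they were Sri, Ppm1l and Pde4dip (r = 0.969, 0.967 and 0.961). For Il1rl1 they were Hivep2, Pakap and Pigv (r = 0.963, 0.960 and 0.959), of which Pakap is a symbol on several rows of the table. Il1r1 was followed by Cmtm4, Zfhx4 and Ctps1 (r = 0.990, 0.979 and 0.974). Il1rap was followed by Rap1b, Btc and Camsap2 (r = 0.984, 0.982 and 0.981). Csf1 was followed by Aopep, Col4a5 and Glg1 (r = 0.994, 0.994 and 0.993), and Tnfrsf11b by Frem1, Ptn and Vat1l (r = 0.995, 0.992 and 0.991).

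Among the other IL1 receptors, Sigirr stood out in both HRAS groups. Sigirr, an inhibitory receptor of the IL1 family, averaged 184 in RISDD and 6.80 in SDD (log2 change 4.64, adjusted p = 7.63e-06), and 104 in SDDIR, a log2 change of 3.83 over SDD (adjusted p = 2.04e-04). With a pseudocount of 10 these log2 changes were 3.52 and 2.77. Of all tested genes 20.0% rose and 22.6% fell in RISDD against SDD, and 8.66% rose and 13.9% fell in SDDIR against SDD. Of 7 other IL1 receptors 5 were tested, and Sigirr was the 1 that rose and Il1r2 the 1 that fell in RISDD against SDD and again in SDDIR against SDD. The Il1r2 call in SDDIR against SDD was lost without SDDIR A, and the falls numbered 3 there without NIL C and 2 in RISDD against SDD without NIL A or NIL C. Il1rapl2 rose in SDD against NIL (means 23.2 and 4.54), a call lost without NIL B or any library of SDD, RISDD or SDDIR. Of 8 other IL1 family ligands 4 were tested, to be read beside the same shares of all tested genes. In RISDD against SDD only Il36g passed, as a rise lost without SDD B, SDD C, RISDD A, RISDD B or RISDD C, and 1 ligand fell without SDDIR A or SDDIR B, while in SDDIR against SDD only Il18 passed, as a fall lost without SDD B, SDD C or SDDIR A. Il36g, Il18 and the other genes with means under 100 are named because their counts are small, after their values were seen.

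Genes of IL1 and IL33 signalling and processing were read next. Of 21 tested, 2 rose and 7 fell in RISDD against SDD, where 20.0% of all tested genes rose and 22.6% fell. In SDDIR against SDD 0 rose and 6 fell, where 8.66% of all tested genes rose and 13.9% fell. The RISDD counts were 5 and 8 without NIL C, with 1 rise when any library of SDD, RISDD or SDDIR was left out. The SDDIR counts were 3 and 11 without NIL C. Casp4, an inflammatory caspase, was 10.8-fold lower in RISDD than in SDD (19.2 and 203, adjusted p = 6.93e-04), and Gsdmd, the pore protein cut by such caspases, was 3.18-fold lower (163 and 526, adjusted p = 3.42e-04). Peli2, a ubiquitin ligase that binds IRAK, was 4.21-fold lower in RISDD than in SDD (adjusted p = 3.88e-06) and 2.27-fold higher in SDD than in NIL (adjusted p = 0.00126). In SDDIR against SDD, Casp4 was 5.52-fold lower (adjusted p = 0.0181), a call lost without SDD B, SDD C or SDDIR B (adjusted p = 0.0642, 0.0574 and 0.167, with a range of 9.62e-04 to 0.167 across the 22 alternatives). Irak3, a kinase-like inhibitor of IRAK signalling, was 4.44-fold lower there (adjusted p = 5.81e-04) and Gsdmd 3.23-fold lower (adjusted p = 0.00180). Between SDD and NIL 2 rose and 2 fell, where 9.32% of all tested genes rose and 8.26% fell, and 1 and 1 did without SDD B. The kinase genes Irak2 (3.93-fold, adjusted p = 3.72e-04) and Irak4 (1.92-fold, adjusted p = 0.0147) were lower. The Irak4 call was lost without SDD B (adjusted p = 0.0557) and when only these 2 groups were fitted (adjusted p = 0.0768), with a range of 3.64e-04 to 0.0768 across the 22 alternatives. In RISDD against SDDIR, where 4.64% of all tested genes rose and 5.05% fell, only Peli2 passed (2.06-fold lower, adjusted p = 0.00568). It did not pass without SDDIR B (adjusted p = 0.0697, with a range of 1.63e-06 to 0.0697 across the 22 alternatives), while 4 genes of the list rose and 2 fell without NIL C.

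The NF-kappaB list was lower in the HRAS groups than in SDD in most of its members. The HRAS groups were not tested against NIL. Means in RISDD and NIL were close for some genes, as for Rel (79.6 and 79.6) and Nfkbia (1306 and 1176). They were far lower in RISDD for others, as for Vcam1 (134 and 1887) and Icam1 (74.5 and 482). For others again they were higher in RISDD, as for Tnfaip2 (6403 and 1805) and Ptgs2 (4401 and 2100). Of 20 tested, 1 rose and 14 fell in RISDD against SDD, where 20.0% of all tested genes rose and 22.6% fell, with a median log2 change of -1.29 against 0.02 for all tested genes. The falls numbered 9 without SDD B, SDD C or RISDD A, and the rises 2 without NIL C. Vcam1 and Icam1, adhesion molecules for leukocytes, were 23.8-fold (134 and 3272, adjusted p = 5.80e-06) and 9.03-fold lower (74.5 and 739, adjusted p = 6.67e-05). Nfkbie, an inhibitor of NF-kappaB, was 4.91-fold lower (adjusted p = 0.00540), with a log2 change of -2.30, or -2.96 without SDD A. The riser was Tnfaip2, at 6066 to 6665 in RISDD and 899 to 2105 in SDD. In SDDIR against SDD 1 rose and 11 fell, where 8.66% and 13.9% of all tested genes did, with a median of -1.18 against 0.01. The falls numbered 6 without SDD B and 5 without SDD C, SDDIR A or SDDIR B, and the rise of Tnfaip2 was lost without SDDIR B. Vcam1 was 6.34-fold lower (adjusted p = 0.00129), Birc3, an apoptosis inhibitor, 3.91-fold lower (adjusted p = 0.00219) and Nfkbia, the main inhibitor of NF-kappaB, 4.43-fold lower (adjusted p = 0.00606), which did not pass without SDDIR A (adjusted p = 0.0648, with a range of 3.99e-06 to 0.0648 across the 22 alternatives). Between SDD and NIL 4 rose and 0 fell, where 9.32% and 8.26% of all tested genes did. The rises numbered 9 without SDD A and 2 without SDD B or SDD C. Rel, an NF-kappaB subunit gene, was 3.31-fold higher (adjusted p = 0.00600), Nfkbiz, an NF-kappaB cofactor gene, 2.45-fold (adjusted p = 5.49e-04) and Nfkbia 2.87-fold (adjusted p = 0.0262). The Nfkbia call was lost without SDD B or SDD C (adjusted p = 0.0917 and 0.102) and when only these 2 groups were fitted (adjusted p = 0.112), with a range of 0.00155 to 0.112 across the 22 alternatives. In RISDD against SDDIR 0 rose and 2 fell, Vcam1 and Icam1 (adjusted p = 0.0177 and 0.0216), where 4.64% and 5.05% of all tested genes did, and 2 rose without NIL C. Vcam1 did not pass without RISDD A, RISDD C or either SDDIR library (adjusted p = 0.0607 to 0.174, with a range of 1.66e-04 to 0.174 across the 22 alternatives). Icam1 did not pass without SDDIR A or any RISDD library (adjusted p = 0.0602 to 0.223, with a range of 1.85e-04 to 0.223 across the 22 alternatives).

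**Figure D4:**
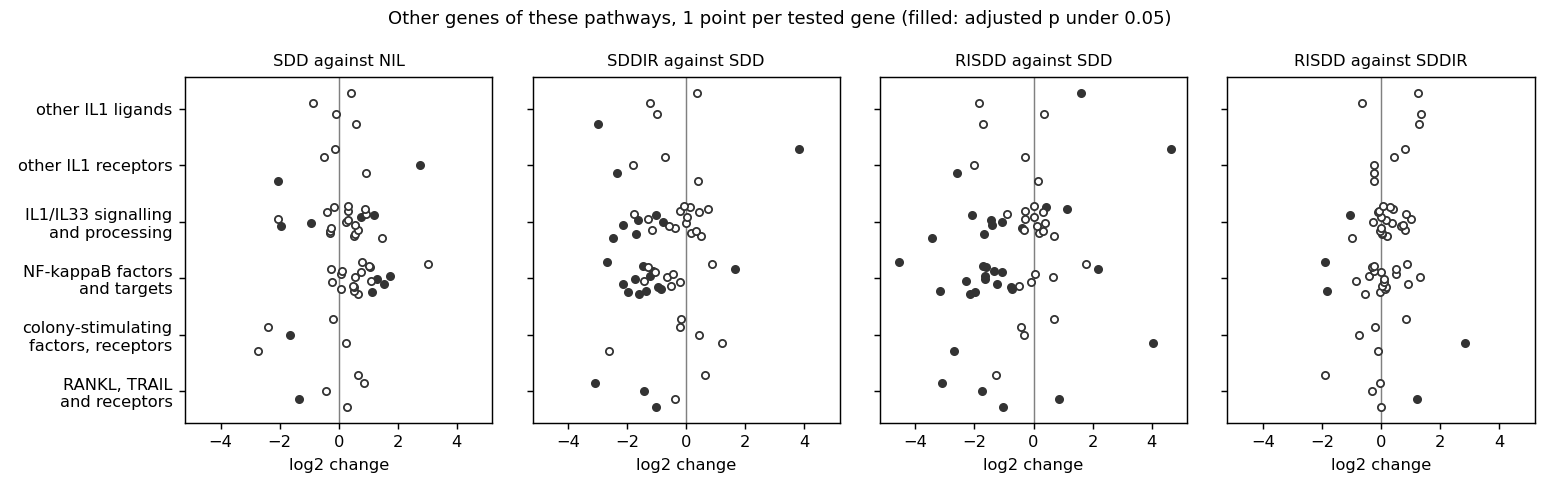
Log2 change of every tested gene of 6 lists in 4 comparisons, with 1 point per gene, filled where the adjusted p was under 0.05. Of the NF-kappaB list, 14 of 20 lay filled on the lower side in RISDD against SDD and 11 of 20 in SDDIR against SDD.

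Csf1r was lowest in the groups with HRAS and highest in NIL. Csf1r, the CSF1 receptor of macrophages, was at 6.18, 19.2 and 11.9 in RISDD, 2.54 and 47.4 in SDDIR, 56.4, 116 and 74.9 in SDD, and 226, 1037 and 621 in NIL. RISDD lay below SDD and SDD below NIL. The macrophage markers did not all share that order: C1qa did (8.66 to 16.2 in RISDD, 47.4 to 119 in SDD and 188 to 799 in NIL), whereas Cd68 and the summed list given above were not lower in RISDD than in SDD. Of 7 colony-stimulating factor genes 5 were tested. The shares of all tested genes that rose or fell in each comparison stand above with the NF-kappaB list. In RISDD against SDD Csf1r fell and Csf2, the gene of GM-CSF, rose (means 24.8 and 0.581). The Csf1r call was lost without SDD A, SDD B, SDD C, RISDD A or RISDD C, and the Csf2 call without RISDD A, RISDD B or RISDD C. In RISDD against SDDIR Csf2 was again the 1 that rose, a call lost when any library of either group was left out. In SDDIR against SDD 0 passed, or 1 fell without SDDIR B. Between SDD and NIL Csf2ra, a receptor subunit of GM-CSF, fell (43.2 and 143, 3.14-fold lower, adjusted p = 0.0115), and 3 genes fell with DESeq2, edgeR, quantile scaling or a pseudocount of 10 and without NIL A, or 2 without SDDIR A or SDDIR B. That Csf2ra call was lost when only these 2 groups were fitted (adjusted p = 0.0733, with a range of 1.82e-04 to 0.0733 across the 22 alternatives).

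Of the ligands and other receptors of osteoprotegerin's pathway, Tnfsf11 (RANKL) was at 74.2, 47.5 and 34.8 in RISDD, 179 and 197 in SDDIR, 81.2, 264 and 81.1 in SDD, and 50.5, 176 and 49.5 in NIL. It passed in no comparison of the main fit, with a log2 change of -1.89 in RISDD against SDDIR (adjusted p = 0.0925). There 0 genes of this list fell, where 5.05% of all tested genes did. With DESeq2, without NIL B or when only these 2 groups were fitted, 1 gene of the list fell. Tnfrsf11a (RANK), Tnfsf10 (TRAIL) and Lgr4, an R-spondin receptor that also binds RANKL, were the 3 of 5 tested genes that fell in RISDD against SDD, where 22.6% of all tested genes fell, and in SDDIR against SDD, where 13.9% did. The SDDIR calls of all 3 were lost without SDDIR B. Lgr4 averaged 250 in RISDD, 248 in SDDIR and 511 in SDD, 2.03-fold and 2.05-fold lower (adjusted p = 0.00133 and 0.00535, with 0.0619 for SDDIR without SDDIR B, and a range of 8.56e-05 to 0.0619 for SDDIR across the 22 alternatives). Tnfrsf10b, a death receptor for TRAIL and a p53 target, was 2.53-fold lower in SDD than in NIL (451 and 1135, adjusted p = 0.00386) and 1.82-fold higher in RISDD than in SDD (799 and 451, adjusted p = 0.0103). Against SDDIR (339) it was 2.36-fold higher in RISDD (adjusted p = 0.0134), a call lost without RISDD C or either SDDIR library (adjusted p = 0.0502 to 0.115, with a range of 2.89e-05 to 0.115 across the 22 alternatives).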

How the data were processed

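PolyA RNA from sorted cells was sequenced as NEBNext Ultra II Directional libraries, per the labels' protocols. Trim Galore 0.6.10, Salmon 1.10.3 and build GRCm39 are named in the submitters' processing notes. The gene-level summing and the scaling of libraries are steps whose tools were not given in the sources used here. What the authors deposited is signal, which the values show to be gene counts over 1 scaling constant for each library. Dividing each library by its lowest nonzero value gave whole numbers for 100% of values (tolerance 0.001), and these served as recovered reads. Of 12 columns, 1 repeated another in all 23077 rows and was counted once, so the other SDDIR sample is not analysed here. The heading does not settle which SDDIR replicate the repeated values belong to.

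A gene was tested when 3 or more libraries reached a value of 10 (14207 genes). Testing used limma 3.58.1 (R 4.3.3) on log2(value + 1) with the 4 groups in 1 model, trended and robust moderation, and Benjamini-Hochberg adjustment over all tested genes. Labels call the samples replicates A to C without saying that they are separate cultures, so a p-value reflects the spread among these samples, which may be technical. The members and lists were chosen with earlier results of these data known. Besides the members, the text names up to 3 changed genes per list and comparison, by size of log2 change among genes whose mean reached 100 in a group, and the 3 genes (mean of 100 or more) most correlated with each member. Cluster neighbours of Il1r1, genes behind small counts, Tnfaip2, Ptgs2, Tnfsf11 and single markers are also named, chosen after their values were seen. The code was tested on simulated data. As 22 alternatives, each library was left out in turn, values were rescaled by upper quartile or by quantiles, the pseudocount was set to 0.5 or 10, the filter was dropped or raised to 50, moderation was plain, the model held just the compared pair of groups or added the replicate letter as a block, and recovered reads were tested with edgeR 4.0.16 or DESeq2 1.42.0.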

Additional observations from a re-analysis of the deposited data

How the results depend on the processing

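Of 616 member changes recomputed (7 genes, 4 comparisons, 22 alternatives), 566 kept their direction and their side of the threshold, 21 lost a call, 13 gained a call and 16 changed sign. The sign changes were all of changes that did not pass. For Il1rn in SDD against NIL the log2 change was -0.0192 with upper-quartile scaling, -0.20 with quantile scaling, -0.0833 with a pseudocount of 10, -0.68 with DESeq2 and -0.66 with edgeR, and -0.65 to 0.99 with a library left out. For Il1rap it was -0.0310 with the replicate block in SDDIR against SDD, and with a library left out -0.0346 to 0.15 there and -0.0323 to 0.536 in SDD against NIL. For Il1rn in SDDIR against SDD it was -1.34 to 0.12 with a library left out. For Il1r1 in RISDD against SDDIR it was 0.0140 with quantile scaling and -0.140 to 0.00397 with a library left out. The number of members changed was 2 to 4 in SDD against NIL, 3 to 4 in SDDIR against SDD, 6 to 7 in RISDD against SDD and 1 to 4 in RISDD against SDDIR with a library left out. With only the 2 groups compared it was 0 in SDD against NIL and 5 in RISDD against SDDIR. The cause was not tested. Counts of all tested genes moved as well. In SDD against NIL 2498 became 778 with only these groups and 1226 to 4114 with a library left out, the last without NIL C. In SDDIR against SDD 3199 became 5359 and 1673 to 6336, and in RISDD against SDDIR 1377 became 4927 and 308 to 4186, or 2258 with DESeq2. Of the calls in SDDIR against SDD 38.4% were higher, or 49.0% with quantile scaling.

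The replicate letters were checked as pairs. Same-letter libraries deviated from their group means with correlations of 0.0516 to 0.216 in SDD against NIL and 0.0656 to 0.175 in RISDD against SDD, under 0.1 for letter C in each. These correlations do not decide whether letters pair the samples. The labels do not say that they do, so the main model held no replicate block. All 12 library comparisons in those 2 pairs of groups were closest to their own letter, which is a hint from the data and not from the design. With the replicate block the members changed numbered 6 in RISDD against SDD, 5 in SDDIR against SDD, 4 in RISDD against SDDIR and 5 in SDD against NIL, and all genes changed 6301, 3359, 1440 and 2777 in that order. Tnfrsf11b in SDD against NIL (adjusted p = 0.00815), Il1rl1 in SDDIR against SDD (adjusted p = 0.0331) and Il1rap in RISDD against SDDIR (adjusted p = 0.0415) passed with the block. Depth limits Il1rn most, with 12 reads in its lowest library, and SDDIR rests on 2 libraries.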

Other observations

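Il1a, Il1b, Nlrp3 and Casp1 were at low values and uneven within groups. These 4 genes were chosen after their values were seen. Il1b was at 2.47, 7.08 and 0.79 in RISDD A, B and C, 0.847 and 16.6 in SDDIR A and B, 2.25, 31.9 and 20.9 in SDD A, B and C, and 3.25, 99.2 and 33.0 in NIL A, B and C. Il1a was at 3.71, 15.2 and 3.95 in RISDD, 0 and 7.11 in SDDIR, 0, 22.2 and 6.76 in SDD, and 0, 24.5 and 7.76 in NIL, with replicates listed in the same way. The library labelled B was the highest analysed of its group for both genes in all 4 groups, as it was for the summed macrophage markers. In SDDIR that rests on 2 libraries, and the letter of SDDIR B is not settled. Nlrp3, the inflammasome sensor, was at 132 in NIL B, against 22.8 in NIL A and 29.1 in NIL C, and Casp1, which cuts IL1B, was at 34.6 in NIL B against 3.25 in NIL A and 0 in NIL C. Nlrp3 was at 3.71, 16.2 and 7.90 in RISDD A, B and C, and at 3.39 and 3.56 in SDDIR. In SDD A, B and C it was at 4.51, 8.70 and 23.3, so SDD C was highest. Casp1 was at 6.77, 3.87 and 5.53 in SDD A, B and C, so SDD B was lowest. It was at 1.24, 6.07 and 1.58 in RISDD A, B and C, and at 0 in both SDDIR libraries. None of Il1a, Il1b and Nlrp3 changed in any of the 4 comparisons, and Casp1 was below the filter.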
